A study of Drosophila melanogaster with 2 samples.

Results

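The cytoplasmic ribosomal protein genes of Drosophila melanogaster were examined for summits of Tailless binding at their promoters. They were taken by symbol as the protein-coding genes of the annotation whose name begins with RpL or RpS and goes on with a digit or P, which leaves out the mitochondrial ribosomal proteins (mRp). This gave 92 of 13945 protein-coding genes, 54 named for the large ribosomal subunit (RpL) and 38 for the small subunit (RpS). The subunit of a gene is taken from its symbol throughout and was not checked for each protein. The rule uses symbols and no measured value. Tailless, encoded by tll, is a nuclear receptor best known as a transcriptional repressor that acts at the poles of the early embryo and later in the brain. Its binding was mapped by chromatin immunoprecipitation and sequencing (ChIP-seq), with anti-GFP antibody, from whole embryos of both sexes, 0 to 4 h old. All embryos came from 1 transgenic strain, 8T-GFP, which stably expresses Tailless with GFP fused to its C terminus. Chromatin was sonicated to fragments of 200 to 800 bp, and the group consisted of 2 biological replicates, numbered 1 and 3. The level of the fusion protein relative to the native one is not given in the labels, and libraries from untagged embryos or input were not analysed here.

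Peak summits in dm6 coordinates came from 4 lists, namely 1 list for each replicate and 1 for both pooled, of 30000 summits each, and 1 of 4045 summits that passed the authors' threshold on irreproducibility between replicates. The thresholded summits were the 4045 strongest of the pooled list, ending at a signal value of 194.6. Signal is the enrichment given by the authors' peak caller, in units they do not state, and pooled values run higher than those of single replicates (list medians 81.9 pooled, 47.3 in replicate 1 and 43.1 in replicate 3). The lists give no read counts, so sequencing depth is unknown and precision rests on the agreement of the 2 replicates. At tll itself, the nearest thresholded summit was at -167 bp relative to the transcription start site (TSS; negative is upstream), with a signal of 376 and rank 1202. Since there was 1 group and no control list was analysed here, no test was made, and counts are set beside the same counts over all protein-coding genes.

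Ribosomal proteins assemble with ribosomal RNA into the ribosome and are needed in nearly equal amounts, so their genes are among the most strongly and evenly transcribed in any cell. In Drosophila many of them are Minute loci, where loss of a single copy slows development and shortens bristles. Most are transcribed from a pyrimidine-rich initiator, the TCT motif, in place of the common initiator and TATA box, with the TBP-related factor Trf2, and the factors Dref, which binds the DNA replication-related element (DRE), and M1BP, which binds motif 1, act at many of their promoters. Early embryos carry a large maternal store of ribosomes and of the messenger RNAs that encode their proteins.

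Of the 92 genes, 30 (32.6%) had a thresholded Tailless summit within 500 bp of a TSS, against 1852 of all 13945 protein-coding genes (13.3%). In the longer pooled list 82 of the 92 genes (89.1%) had such a summit, against 52.3% of all genes. Replicate 1 alone gave 82 genes (89.1%, against 51.5% of all genes) and replicate 3 alone 80 genes (87.0%, against 51.0%). Both replicate lists held 77 of the genes, replicate 1 alone a further 5, replicate 3 alone a further 3, and 7 were in neither. The share of ribosomal protein genes with a summit was above the share of all genes in each of the 4 lists. The strongest pooled summit of a gene had a median signal of 170 over the 82 genes (range 66.0 to 638), against 128 over the 7295 genes with a pooled summit, and 57 of the 82 were above that median. Of the 30 thresholded genes, 10 had a summit among the 2022 strongest of the thresholded list, against 779 of the 1852 thresholded genes of the whole annotation. Their strongest summits had a median signal of 258, against 266 over those 1852 genes, so the signal of the set was not above that of other genes once they had passed the threshold.

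**Figure D1:**
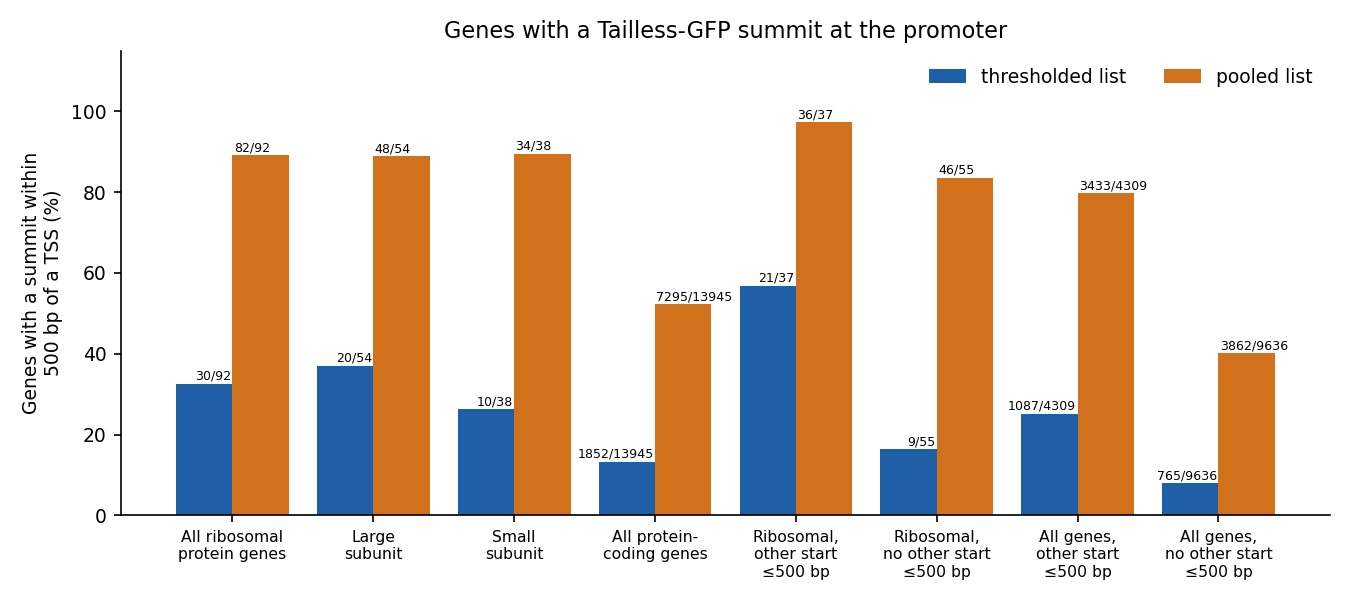
Share of genes with a Tailless-GFP summit within 500 bp of a TSS (%, vertical axis) in the thresholded list (blue) and the pooled list (orange), with the counts above the bars; the left 4 groups are the ribosomal protein genes, their subunits and all genes, and the right 4 split ribosomal protein genes and all genes by whether another gene starts within 500 bp. Ribosomal protein genes stand at 32.6% and 89.1% and all genes at 13.3% and 52.3%, and genes with another start nearby are above genes without one in both sets.

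The promoters of 8 genes with thresholded summits are shown, in the Release 6 (dm6) assembly of RefSeq, each read 5′ to 3′ on the strand of its gene from 130 bp before the TSS to 10 bp from it. Of the starts of a gene, the one nearest to its strongest summit was used. RpS25, RpS27 and RpS19a had the 3 strongest summits of the set, RpL14 and RpL23A had 2 of the strongest in the large subunit, RpL34a and RpL24-like held the 8-letter DRE without a TCT motif, and RpS30 differed most between replicates. Capitals mark the words searched: TATCGATA or its core ATCGAT (DRE), AAGTCA (the core word bound by Tailless), CAGCTG (an E-box) and CTTTC or CTTTT at the start (TCT motif), the first 3 on either strand.
RpS25 (chr3R:11216278-11216417, minus strand): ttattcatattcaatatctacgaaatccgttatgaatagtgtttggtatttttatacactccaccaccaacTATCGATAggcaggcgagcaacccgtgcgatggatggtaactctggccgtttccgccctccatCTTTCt
RpS27 (chr3R:25247505-25247644, minus strand): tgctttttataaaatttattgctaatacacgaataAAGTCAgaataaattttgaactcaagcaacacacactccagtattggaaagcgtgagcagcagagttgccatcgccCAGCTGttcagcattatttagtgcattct
RpS19a (chrX:16637764-16637903, plus strand): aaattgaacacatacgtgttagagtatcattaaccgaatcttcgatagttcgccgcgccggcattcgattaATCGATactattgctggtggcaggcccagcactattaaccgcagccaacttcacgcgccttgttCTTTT
RpL14 (chr3L:8600876-8601015, plus strand): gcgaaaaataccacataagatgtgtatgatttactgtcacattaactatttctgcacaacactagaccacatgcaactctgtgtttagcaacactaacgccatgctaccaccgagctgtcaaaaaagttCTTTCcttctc
RpL23A (chr3L:1668645-1668784, minus strand): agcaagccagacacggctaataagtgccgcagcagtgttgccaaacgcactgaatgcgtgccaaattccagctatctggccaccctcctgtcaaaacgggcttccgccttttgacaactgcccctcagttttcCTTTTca
RpL34a (chr3R:26059258-26059397, minus strand): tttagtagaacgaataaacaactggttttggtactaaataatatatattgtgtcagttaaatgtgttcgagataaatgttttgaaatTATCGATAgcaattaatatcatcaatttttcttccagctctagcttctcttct
RpL24-like (chr3R:11431573-11431712, minus strand): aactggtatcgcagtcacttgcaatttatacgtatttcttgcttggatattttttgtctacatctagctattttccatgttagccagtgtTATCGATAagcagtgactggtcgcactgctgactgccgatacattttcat
RpS30 (chr3R:20850704-20850843, plus strand): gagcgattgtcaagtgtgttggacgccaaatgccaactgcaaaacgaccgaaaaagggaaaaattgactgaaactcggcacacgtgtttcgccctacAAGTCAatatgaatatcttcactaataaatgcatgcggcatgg

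In RpS25 the summit lay 43 bp upstream of the TSS, and the DRE began 16 bp before the summit, with the TCT motif 4 bp after the TSS. RpS27 had its summit at 22 bp upstream, 3 bp from the first base of the E-box, and AAGTCA began 73 bp before the summit. The summit of RpS19a lay 8 bp upstream of the TSS, 51 bp downstream of the first base of the DRE core and 13 bp upstream of the TCT motif. RpL14 and RpL23A held the TCT motif and none of the other capitalised words in these windows, with summits 49 and 67 bp upstream. RpL23A also held the common initiator word TCAGT near its TSS, which is not capitalised here. In RpL34a and RpL24-like the DRE began 43 and 40 bp upstream of the TSS, 79 and 71 bp downstream of their summits. RpS30 had AAGTCA 33 bp upstream of the TSS, 9 bp from its summit. A word in a window is a description of the sequence and not of what was bound there.

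The large subunit supplied 20 thresholded genes of 54 (37.0%) and the small subunit 10 of 38 (26.3%). In the pooled list the shares were 88.9% (48 genes) and 89.5% (34 genes). Among the 4045 strongest summits of replicate 1, a list of the same length as the thresholded one, the large subunit had 15 genes (27.8%) and the small subunit 11 (28.9%), where all genes stood at 13.0%. Replicate 3 gave 22 genes (40.7%) and 9 (23.7%) in the same way, with all genes at 12.9%. The excess of large-subunit genes in the thresholded list was thus present in replicate 3 and absent in replicate 1. The median of the strongest pooled signal was 177 in the large and 151 in the small subunit, while the 3 highest values belonged to the small subunit.

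Among the small-subunit genes, RpS25 (FBgn0086472) had the strongest summit of all, at position 11216330 on 3R with rank 392. Its signal was 349 in replicate 1, 295 in replicate 3 and 638 in the pooled list, and the mean log2 signal was 8.33 ± 0.17 (SD, n = 2). RpS27 followed at position 25247536 on 3R, with 304 and 261 in the replicates and 577 pooled (log2 8.14 ± 0.15, SD, n = 2). RpS19a, at position 16637886 on X, had 292 and 264 in the replicates and 529 pooled (log2 8.12 ± 0.10, SD, n = 2). Each of these 3 genes had a second thresholded summit about 200 bp from the first, and whether it marks a separate site was not tested. The replicate values of all 3 genes lay above those of every other gene of the set. Those of RpS27 overlapped those of both others, so the order of the 3 is not settled by 2 replicates. The products of RpS25, RpS27 and RpS19a are structural proteins of the small subunit, and the human counterpart of RpS19a is a gene mutated in Diamond-Blackfan anaemia.

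Below that level the small-subunit genes fell into a narrow band of pooled signals between 212 and 274. RpS28a had 197 in replicate 1 and 105 in replicate 3, with its strongest summit 365 bp downstream of the TSS and 62 bp from the start of Mgat2. RpS10b had 152 and 105, with its summit 111 bp upstream. RpS16, RpS4 and RpS20 had closer replicates, at 127 and 137, 108 and 146, and 110 and 110. RpS14a, the upstream copy of a tandem pair on X, had 125 and 95.5. At RpS30, whose human counterpart is made as a fusion to a ubiquitin-like protein, the values were 185 in replicate 1 and 67.3 in replicate 3, a log2 difference of 1.46, and the gene was among the 4045 strongest summits of replicate 1 and not of replicate 3.

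Large-subunit genes with a thresholded summit ran from 393 down to 197 in pooled signal. RpL7 led them, with 192 in replicate 1 and 204 in replicate 3 (log2 7.63 ± 0.06, SD, n = 2) and its summit at position 10201054 on 2L, 46 bp upstream of the TSS. RpL14 had 174 and 185 (log2 7.49 ± 0.06). Both values of RpL7 were above both of RpL14. RpL23A, a protein at the exit of the peptide tunnel, had 145 and 188. RpL41, which encodes one of the smallest proteins known, had 168 and 148, RpL34b had 174 and 141, and RpL19 had 160 and 139.

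The ribosomal stalk, a flexible arm of P proteins that recruits translation factors, was represented by its base and one of its tips. RpLP0, the base of the stalk, had a thresholded summit 65 bp upstream of a TSS with 143 in replicate 1 and 133 in replicate 3. RpLP2 had 98.1 and 141, 170 bp upstream. RpLP1, its partner, had 61.5 and 117 with a pooled signal of 194 and rank 4063, and was the first ribosomal protein gene below the end of the thresholded list. RpL22, at 197 and rank 3938 with 107 and 89.5 in the replicates, was the last one above it. The 3 stalk genes thus straddled the threshold, and RpL22 was the only thresholded gene that was outside the 4045 strongest summits of both replicates.

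The remaining thresholded genes of the large subunit had pooled signals between 208 and 266. They included RpL11, which with RpL5 binds the 5S ribosomal RNA, at 102 in replicate 1 and 112 in replicate 3. RpL32, often used as a reference transcript in Drosophila under the name rp49, had 140 and 123. RpL30 had 109 and 116, RpL13 had 116 and 106, and RpL13A had 111 and 137. RpL18 had 92.9 and 137, RpL24 had 94.6 and 119, and RpL34a had 146 and 117. The replicate values of most of these 8 genes overlapped, so no order among them is given. RpL24-like, whose yeast counterpart is an assembly factor, had 128 and 88.9, and RpLP0-like had 108 and 154.

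**Figure D2:**
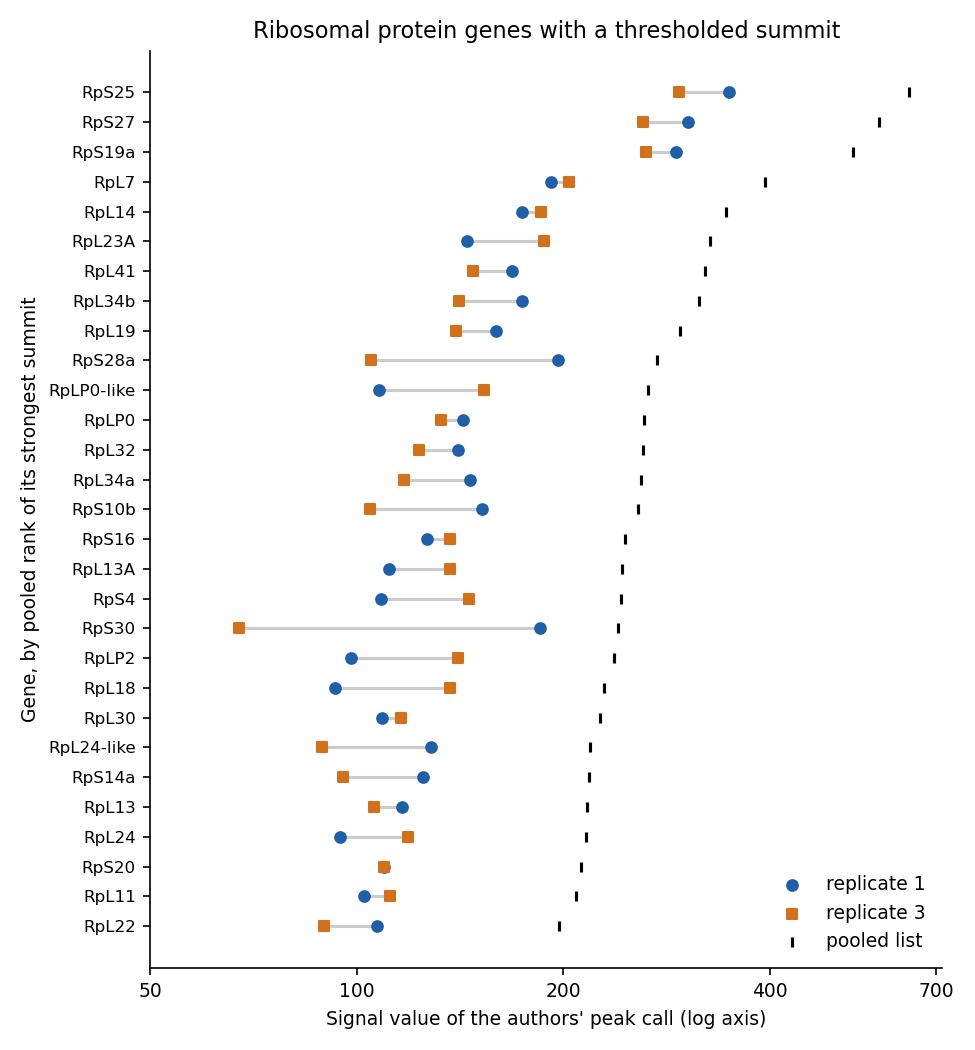
Signal value of the authors' peak calls (horizontal, log axis) for the strongest summit of ribosomal protein genes with a thresholded summit, in replicate 1 (blue circles), replicate 3 (orange squares) and the pooled list (black marks), ordered by pooled rank. RpS25, RpS27 and RpS19a lie above 260 in both replicates, the other genes lie between 67.3 and 204, and RpS30 and RpS28a have the widest gaps between replicates.

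Of the 30 thresholded genes, 21 were among the 4045 strongest summits of both replicates taken singly. RpL11, RpL18, RpL24, RpLP0-like and RpLP2 were in the upper part of replicate 3 only, and RpL24-like, RpS14a and RpS30 in that of replicate 1 only. Over the 121 pooled summits at these genes with a value in both replicates, the median log2 ratio of replicate 1 to replicate 3 was 0.07, with a range from -1.84 at RpL10Ab to 1.46 at RpS30, and replicate 1 was higher at 68. The median SD of a summit over the 2 replicates was 0.23 on the log2 scale. Across these summits, which share their libraries and in part their replicate entries, the log2 values had a Pearson correlation of 0.679 and a Spearman correlation of 0.637, given as a description. All promoter summits in the pooled list had a median log2 ratio of 0.16 and a Pearson correlation of 0.782 (n = 7599).

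Between the subunits, replicate 1 was higher at 33 of 49 small-subunit summits (median log2 ratio 0.24) and at 35 of 72 large-subunit summits (median -0.09). The spread within each subunit, from -0.51 to 1.46 and from -1.84 to 1.03, was far wider than that difference. RpL10Ab, whose replicate signals were 33.2 and 119, and RpL31, with 54.9 and 126, had the largest excess of replicate 3, and RpS15, with 77.9 and 29.0, stood next to RpS30 on the other side. Of the 127 pooled summits, 102 had a summit of replicate 1 within 100 bp, and 110 had one of replicate 3, which leaves 25 and 17 without. Over those matched within that limit, the median shift was 22 bp in replicate 1 and 31 bp in replicate 3.

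**Figure D3:**
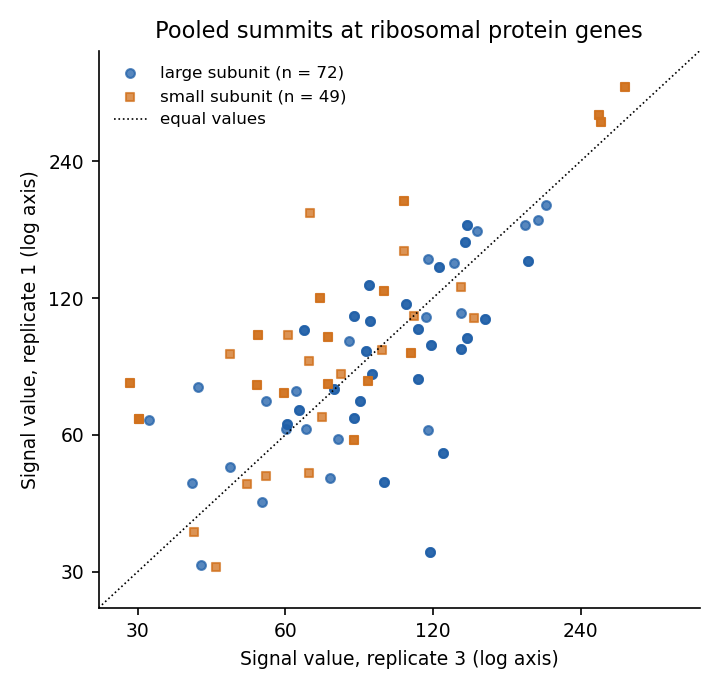
Signal value in replicate 1 (vertical, log axis) against replicate 3 (horizontal, log axis) for the 121 pooled summits at ribosomal protein genes with both values, large subunit as blue circles (n = 72) and small subunit as orange squares (n = 49), with the dotted line at equal values. Small-subunit summits lie more often above the line (33 of 49) than large-subunit ones (35 of 72), and the 3 strongest genes stand apart at the upper right.

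Summits sat just upstream of the TSS. The 33 thresholded summits had a median position of 103 bp upstream, from 274 bp upstream to 365 bp downstream, and 32 of them (97.0%) were upstream, against 79.3% of the 2109 pairs of a thresholded summit and a gene over all genes. Within the 200 bp before the TSS lay 28 of the 33 (84.8%), against 52.3% over all genes, where the median was 108 bp upstream. The median for ribosomal protein genes was closer to the TSS among the 4045 strongest summits of a single replicate, at -56.0 bp in replicate 1 and -67.0 bp in replicate 3. For each gene's strongest pooled summit, 73 of 82 (89.0%) were upstream and 63 (76.8%) within the last 200 bp, against 72.0% and 47.5% of 7295 genes. Only the summit of RpS28a lay more than 100 bp downstream among the 82 (1.22%), against 13.2% over all genes.

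The same narrow placement was present in both replicates. In replicate 1, 75.6% of the strongest summits of these genes were within the last 200 bp before the TSS, against 43.9% over all genes, and in replicate 3 63.7% against 46.8%. Thresholded summits of the large subunit had a median position of -111.5 bp (20 summits) and those of the small subunit of -53.0 bp (13 summits), each with a range wider than this gap. By annotation, 23 of the 33 thresholded summits were outside genes, 7 in a 5′ UTR and 3 in an intron. Many of these genes start at several annotated TSSs, with a median of 2 per gene against 1 over the 7295 genes with a pooled summit. With 1 start per gene, 30 of them (32.6%) still had a thresholded summit and 82 (89.1%) a pooled one, against 11.5% and 49.9% of all genes, and the median position of the thresholded summits was again -103 bp.

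**Figure D4:**
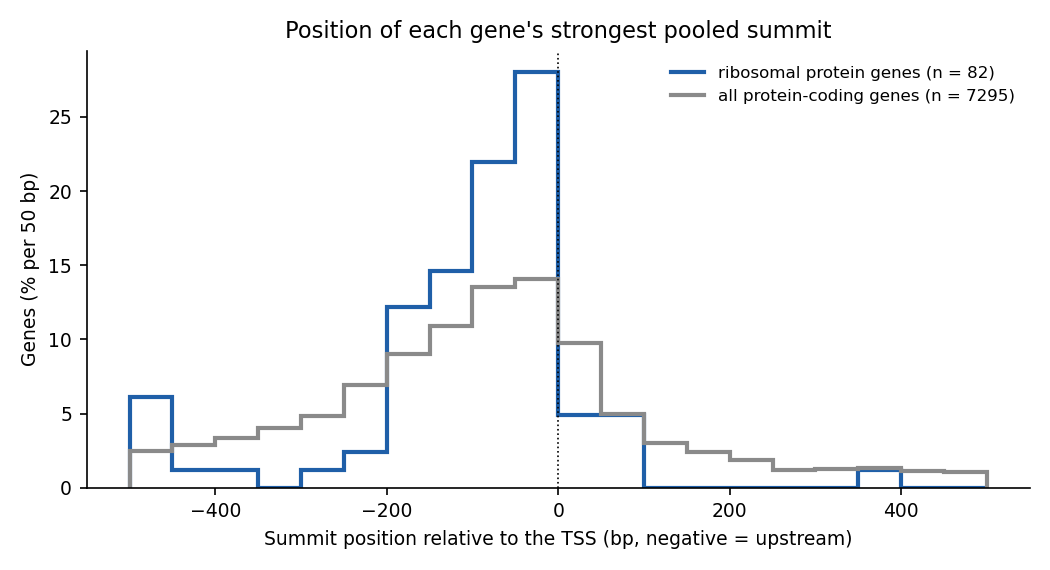
Position of each gene's strongest pooled summit relative to the TSS (horizontal, bp, negative upstream) as the share of genes per 50 bp (vertical, %), for 82 ribosomal protein genes (blue) and 7295 protein-coding genes (grey), with the dotted line at the TSS. Ribosomal protein genes are concentrated in the 200 bp upstream of the TSS (76.8% against 47.5%) and nearly empty beyond 100 bp downstream (1.22% against 13.2%).

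Several genes carried a series of summits. Within 500 bp of a TSS, 39 genes had 1 pooled summit, 41 had 2 and 2 had 3. The set held 127 pooled summits at 82 genes, against 11636 pairs of a summit and a gene at 7295 genes of the annotation. The number per gene was similar, so several summits at a gene were not particular to the set. Neighbouring summits of a gene were a median of 205 bp apart (n = 45, range 199 to 694 bp). The gaps thus gathered at their lowest value, near the length of the shortest fragments (200 bp). Whether neighbouring summits mark separate sites was not tested. The genes with 3 were RpL5 and RpS9. RpL5, the partner of RpL11 in 5S RNA binding, had pooled signals of 124, 109 and 51.9, all below the threshold. RpS9, a protein of the small subunit, had 87.7, 66.3 and 57.5. A count of summits therefore did not follow their strength in these genes.

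Many ribosomal protein genes share their promoter region with another gene. Another protein-coding gene started within 500 bp of the TSS at 37 of the 92 genes (40.2%), against 30.9% of all genes. A thresholded summit was present at 21 of these 37 (56.8%) and at 9 of the other 55 (16.4%). Over all genes the same split gave 25.2% of 4309 and 7.94% of 9636, so a close neighbour went with a higher share in both sets, and the share was higher in ribosomal protein genes within each class. The replicates taken singly gave 20 and 23 of the 37, and 6 and 8 of the 55. This split was made after the data had been seen, and whether a summit belongs to either gene of a pair cannot be told from its position.

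In 35 of the 37 the nearest neighbour was on the opposite strand, the starts being a median of 255 bp apart (range 30 to 491 bp). All 21 with a thresholded summit were of this divergent kind by their nearest neighbour, and 19 of their 24 thresholded summits lay between the starts. The thresholded summit of RpS28a did not, lying 62 bp from the start of Mgat2, which is on the same strand as RpS28a. RpL13 shares such a region with Dref, the gene for the DRE-binding factor itself. The summit of RpL13 lay 160 bp upstream of its TSS and 76 bp downstream of the start of Dref, so it was not between the starts. RpL14 is paired with Nelf-E, a subunit of the factor that pauses RNA polymerase II, with its summit 78 bp from that start. RpL19 and CG3776 had theirs 112 bp and 19 bp away. RpS25 is paired with CG4820, RpS27 with Nup37, RpL41 with NaCP60E, RpLP0-like with 14-3-3zeta and RpL34a with Trmt61. The thresholded summit of RpLP0-like lay 90 bp downstream of the start of 14-3-3zeta, so it too was not between the starts. In all, 12 of the 33 thresholded and 28 of the 127 pooled summits were nearer to the start of the other gene. When each summit was given to the nearest gene only, 20 ribosomal protein genes (21.7%), 12 of them of the large subunit, kept a thresholded summit, against 9.9% of all genes.

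The 9 thresholded genes with no other start within 500 bp were RpL11, RpL22, RpL23A, RpL24, RpL30, RpLP2, RpS10b, RpS30 and RpS4. All 9 of their summits were upstream of the TSS, between 3 and 170 bp from it. Their pooled signals ran from 197 to 327, with RpL23A highest and RpS10b next at 257.

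The genes with a pooled but no thresholded summit numbered 52, and the 10 strongest of them began with RpLP1, described above, and RpS21 at 191, with 91.0 in replicate 1 and 108 in replicate 3. RpL3, a core protein of the peptidyl transferase region, had 110 and 82.9, and RpS5a had 120 and 70.8. RpL28, whose divergent neighbour is the initiation factor gene eIF1, had 79.6 and 112. RpL37A had 91.7 and 87.8, RpL7-like 102 and 65.4, and RpL37-1 81.8 and 90.1. With RpL31 and RpLP1, these genes had signals of 170 to 194 and lay just below the end of the thresholded list. RpLP1, RpS21, RpL31, RpL28 and RpL10Ab were among the 4045 strongest summits of replicate 3 taken alone, and RpL3 and RpS5a among those of replicate 1.

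No pooled summit within 500 bp was present at 10 genes: RpL10Aa, RpL22-like, RpL27, RpL37-2, RpL39, RpL40, RpS10a, RpS15Ab, RpS28-like and RpS5b. Of these, RpL27 had a summit in replicate 1 alone, 89 bp upstream with a signal of 78.2, and RpS15Ab one in replicate 1 with 47.2. RpL40, which encodes a fusion of ubiquitin to a large-subunit protein, had one in replicate 3 alone with 35.0. RpS28-like had its nearest pooled summit 532 bp downstream, just past the 500 bp limit, whereas RpL36A at 477 bp upstream was just within it. At the other 6 the nearest pooled summit lay between 856 and 7511 bp from a TSS. A gene without a summit is one with no entry among the 30000 strongest, not one shown to be unbound.

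Of these 10 genes, 7 share the base of their symbol with another gene of the set. Of the 92 genes, 27 fall by symbol into 13 families of 2 or 3 genes, called copies here. A shared symbol does not show that they encode the same ribosomal protein, as with RpL24-like, whose yeast counterpart is an assembly factor. Most families pair a broadly expressed gene with a copy of narrower use, such as RpL22-like, best known from the testis, and RpS5b, best known from the ovary. In 7 families 1 copy had a pooled summit and another had none: RpL10Ab (156), RpL22 (197), RpL37-1 (170), RpS10b (257), RpS15Aa (84.8) and RpS5a (182) had one, and RpL10Aa, RpL22-like, RpL37-2, RpS10a, RpS15Ab and RpS5b had none, while RpS28a (274) and RpS28b (127) had one and RpS28-like none. In the other 6 families every copy had a pooled summit. By contrast 62 of the 65 genes without such a copy had one, all but RpL27, RpL39 and RpL40. For thresholded summits the order was the other way, with 12 of the 27 copies and 18 of the 65 other genes. All genes stood at 13.3% in that list. Whether the narrower copies are accessible or transcribed in these embryos was not measured here. The RpL37 pair was added to the families after the data had been seen.

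In 3 families each copy had a thresholded summit, where RpL24-like and RpLP0-like are counted as copies by symbol alone. RpL34a and RpL34b had pooled signals of 260 and 316, RpL24 and RpL24-like 216 and 219, and RpLP0 and RpLP0-like 262 and 266, and in each family the replicate values of the copies overlapped. Elsewhere the copies were unequal. RpS19a stood at 529 and RpS19b at 106, the latter with no entry in replicate 1. RpL7 had 393 and RpL7-like 173. RpS14a had 218 and RpS14b, its tandem neighbour on X with a near-identical product, 82.7, with replicate values of 48.8 and 54.8. That summit of RpS14a lay 274 bp upstream of its TSS and nearer to the start of Dhdds, at 117 bp. The other summit of RpS14a, 73 bp upstream, had 140, with replicate summits within 100 bp at 88.7 and 42.8. The values of RpS14b lay between these 2. Reads from near-identical copies can be placed on either one, and how such reads were handled is not stated by the labels or headers.

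The promoter sequences of the set, taken from 250 bp before to 50 bp after the start of each gene, carried the known marks of ribosomal protein genes. The TCT motif, searched as CTTTT or CTTTC beginning within 10 bp of the start on the gene's strand, was present at 48 of 92 genes (52.2%), against 6.62% of all 13945 genes. When any annotated start of the gene was allowed, it was present at 76 (82.6%), against 9.54%. The common initiator TCAGT at the start was present at RpL23A alone (1.09%, against 13.1%). TATAAA between 45 and 15 bp before the start was present at RpL39 alone (1.09%, against 8.75%). The DRE TATCGATA was in 28 promoters (30.4%, against 9.36%) and its core ATCGAT, which that word includes, in 41.3% (against 23.3%). The core of motif 1, GGTCACAC, was in 15.2% (against 7.7%).

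The word of Tailless was not more frequent. AAGTCA was present in 12 of 92 promoters (13.0%), against 16.2% of all genes. Among the 30 thresholded genes it was present in 6 (20.0%), against 20.2% of the 1852 genes with a thresholded summit. These 6 were RpL19, RpLP2, RpS10b, RpS19a, RpS25 and RpS27. RpS30 is not among them because these counts use the first start of each gene, and its printed promoter belongs to a later one. With any annotated start, 14 of the 92 genes (15.2%) had the word, against 19.8% of all genes. Within 50 bp of the 33 thresholded summits it was found at 3 (9.09%), those of RpS19a, RpS10b and RpS30, against 14.1% of 1519 thresholded promoter summits of all genes. TATCGATA was found within 50 bp at 4 (12.1%, against 4.21%), among them those of RpS25, RpL41 and RpS10b.

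The words were also compared between the 30 genes with a thresholded summit and the 62 without. AAGTCA was in 6 of the 30 (20.0%) and 6 of the 62 (9.68%), and ATCGAT in 15 of the 30 and 23 of the 62. GGTCACAC went the other way, with 3 of the 30 and 11 of the 62. The TCT motif at any start was present at 83.3% and 82.3%, and TATCGATA in 33.3% and 29.0%. These shares rest on few genes and were not tested. Of the words of early embryonic enhancers, CAGGTA, bound by the early activator Zelda, was in 4.35% of the 92 promoters (against 6.24%). With any annotated start it was in 7.61% (against 8.43%), so it was near the share of all genes. GAGAGA, the word of GAGA factor, was less frequent, in 4.35% (against 12.3%), as was the E-box CAGCTG, in 9.78% (against 17.7%). Of 1092 words of 6 letters compared after the data had been seen, CCGGAA had the highest ratio to all genes, being in 32 promoters of the set (34.8%, against 6.78%), with a share of 33.3% among genes with a thresholded summit and 35.5% among those without. All words other than TCT, TCAGT and TATAAA were searched on both strands.

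**Figure D5:**
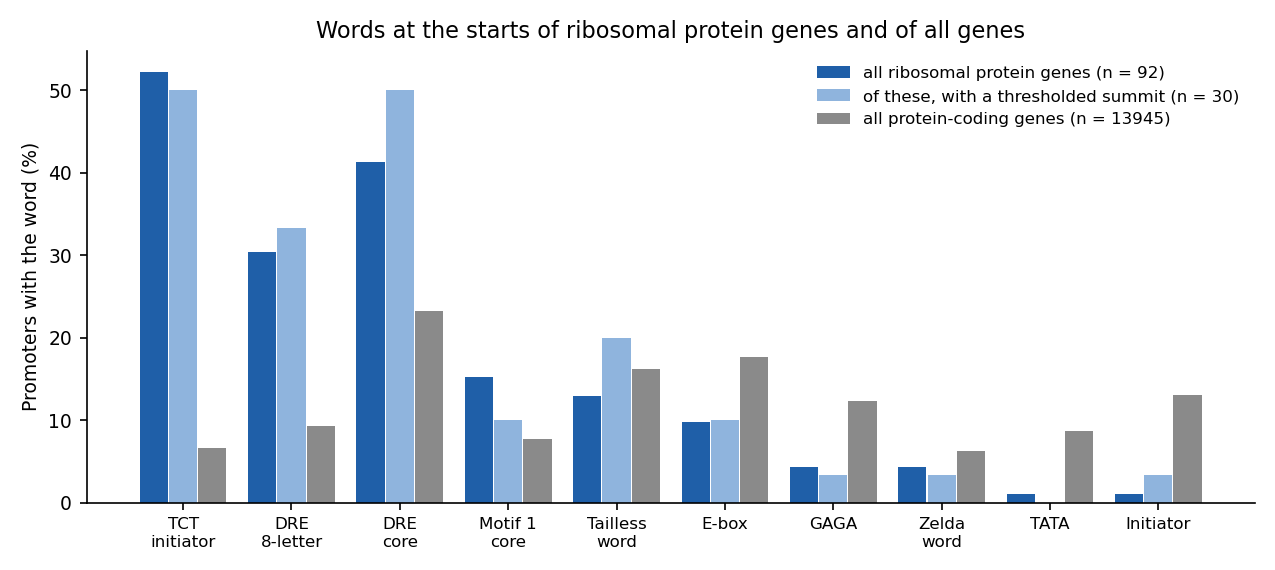
Share of promoters holding each word (%, vertical axis) for the 92 ribosomal protein genes (dark blue), the 30 of them with a thresholded summit (light blue) and all 13945 protein-coding genes (grey), over 300 bp around the gene start. The TCT initiator (52.2% against 6.62%) and the DRE (30.4% against 9.36%) are far above all genes, and the Tailless word is not (13.0% against 16.2%).

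The base composition of these promoters was a median of 36.3% GC, against 38.0% over all genes. It was 39.0% in the 30 genes with a thresholded summit and 35.3% in the 62 without, whereas the 1852 thresholded genes of the whole annotation had 38.0%. Base composition thus moved with the presence of a summit within the set, and its part in the result was not tested.

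Ribosomal protein genes often carry small nucleolar RNAs (snoRNAs), guides of ribosomal RNA modification, in their introns. This held for 28 of the 92 genes (30.4%), against 84 of 13945 (0.602%). All 28 hosts had a pooled summit, where 89.1% of the 92 genes and 52.3% of all genes had one. A thresholded summit was present at 9 of the 28 hosts and at 21 of the 64 other genes, which are similar shares. By chromosome, 4 of the 14 genes on X (28.6%) and 26 of the 78 on autosomes (33.3%) had a thresholded summit, against 8.52% and 14.2% over all genes. The pooled list held all 14 on X and 87.2% of those on autosomes, against 52.2% and 52.3% over all genes.

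The other genes of translation were taken from lists by symbol. Mitochondrial ribosomal proteins had a thresholded summit at 18 of 73 genes (24.7%) and a pooled one at 64 (87.7%). Their strongest were mRpS10 at 864, mRpL1 at 594 and mRpL41 at 530. Initiation factors had a thresholded summit at 10 of 44 (22.7%) and a pooled one at 32, led by eIF4G2, a relative of the scaffold eIF4G, at 966, with the eIF3 subunits eIF3m at 401 and eIF3a at 369. Of 9 elongation and release factors, all had a pooled summit and eEF1gamma at 382 was the only thresholded one. Each of these thresholded shares was above the 13.3% of all genes except that of elongation and release factors (11.1%). All were below the 32.6% of the cytoplasmic ribosomal protein genes. With each summit given to the nearest gene only, mitochondrial ribosomal proteins kept one at 9 of 73 genes, where all genes stood at 9.9%.

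The list of ribosome assembly and nucleolar factors, called assembly factors here, had thresholded summits at 4 of 26 genes (15.4%). Among these were Nnp-1 at 310, eIF6 at 258 and the RNA helicase gene bel at 219. The product of eIF6 keeps the subunits apart, and the gene is also in the list of initiation factors. Subunits of RNA polymerases I and III, which make ribosomal and transfer RNA, had them at 3 of 17 (17.6%), with Polr3C at 351, Polr3E at 292 and Polr1D at 239. Among 10 regulators of ribosomal protein promoters or of growth, 3 had one, namely Trl, which encodes GAGA factor, at 491, Dref at 217 through the summit it shares with RpL13, and S6k, the kinase of RpS6, at 200. In the assembly list 2 symbols and in the regulator list 1 were not matched to the annotation and are not counted. All genes stood at 13.3%, so the thresholded shares of assembly factors and polymerase subunits were close to that of all genes. Pooled summits were present at 88.5% of assembly factors, 82.4% of polymerase subunits and 90.0% of regulators, against 52.3% of all genes. The pooled share of the cytoplasmic ribosomal protein genes (89.1%) was therefore not particular to them.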

How the data were processed

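Per the labels, Tailless fused to GFP was immunoprecipitated from embryos of 1 strain in 2 biological replicates, and 4 peak lists in narrowPeak format were deposited in dm6 coordinates. Per the text files deposited with the samples, each replicate list was called on that replicate against 1 control alignment, the pooled list on both, and the thresholded list from these by irreproducible discovery rate. The sources used here do not give the aligner or the peak caller. The signal value of each summit is the authors' own, without a stated scale. The deposited −log10 q-value has a ceiling and was not used to rank. Depth is unknown, so no interval is given.

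Later steps used Python 3.11.15 with pandas 2.3.3, numpy 2.4.6 and matplotlib 3.10.9. Gene models were those of Ensembl release 115 on BDGP6.54, and bases were read from RefSeq's copy of Release 6, which dm6 also names. A summit belongs to every gene with an annotated TSS of a transcript within 500 bp. The replicate value of a pooled summit is that of the strongest replicate entry whose interval overlaps its interval by at least 1 bp, so several summits can share it, and the SD over replicates is of log2 values. Assignment was tested on simulated summits. The genes and lists were chosen with earlier results of these data known. The genes named are all with a thresholded summit, the 10 strongest others, those with most summits, those nearest to either limit, all copies marked by a letter or "-like", those without a pooled summit, and up to 3 of each other list, except for a few genes that are not reported here. Splits by neighbouring starts, snoRNA hosts and words of 6 letters were added after the data were seen.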

Additional observations from a re-analysis of the deposited data

How the results depend on the processing

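Of 133 values recomputed under other settings, 106 kept within the margin set for them and 27 moved. The margin was 1.5 times for a count and 1 SD or counting error for other values. A reversal was recorded for 0 values, but only a median position or a median log2 ratio could have received that label. With the upper 2022 of the thresholded summits alone, 10 ribosomal protein genes had one (10.9%, against 5.59% of all genes), 7 large and 3 small, and of the other lists 7 mitochondrial ribosomal proteins, 5 initiation factors, 1 assembly factor and 1 regulator. With each summit given to the nearest gene only, 12 of 54 large-subunit genes and 9 of 73 mitochondrial ribosomal proteins kept one. All genes stood at 9.9% in that setting. Using the strongest summits of 1 replicate alone, the count of ribosomal protein genes was 26 to 31, that of elongation and release factors 1 to 2 and that of assembly factors 5 to 7. The median position then ran from -67 to -56 bp for thresholded and from -76.5 to -67.5 bp for pooled summits, and the median signal from 71.4 to 77.5. Limiting the distance to 250 bp gave a median pooled position of -53.0 bp, the strongest summit per gene a median signal of 170, and a distance of 1000 bp one of 122. Within 50 bp of the strongest pooled summit in place of the promoter, AAGTCA was found at 6.1% of the genes, TATCGATA at 7.32%, ATCGAT at 13.4%, GGTCACAC at 4.88%, CAGCTG at 3.66% and GAGAGA at 0.0%, in a window shorter than the promoter. The TCT motif at any transcript start, a setting chosen after seeing the data, was found at 82.6%. No paired analysis was possible because there was 1 group. With 2 replicates, no control list analysed here and unknown depth, a difference between single genes below their replicate spread is not resolved, and a list that ends by rank says nothing of weaker binding.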
